A study of Mus musculus with 20 samples.

Results

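The genes described here are 10 members of the machinery that sets the start of a cell division cycle: the D cyclins Ccnd1, Ccnd2 and Ccnd3, their partner kinases Cdk4 and Cdk6, and the CDK inhibitors Cdkn1a, Cdkn1b, Cdkn1c, Cdkn2c and Cdkn2d. The list follows gene function and no measured value enters its rule, although earlier results of these data were known when it was drawn up. All 10 were found among 18193 mouse genes with a probe set of their own, and they were read by 26 of the 45101 probe sets on the array, of which 19 were bright enough to be tested. The study was a survey of expression in hematopoietic stem cells and their progeny on 20 Affymetrix arrays, 2 for each of 10 sorted cell types. The types were long-term hematopoietic stem cells (LT-HSC, whose sample titles add SPKSL), nucleated erythrocytes, monocytes, granulocytes, natural killer (NK) cells, B cells, and CD4 T cells and CD8 T cells, each in an activated and a naive group. The activated T cells carry an LPS (lipopolysaccharide) treatment in their labels, and no treatment is given for the other types. All mice were wild-type C57Bl/6, labelled female and 12 to 14 weeks old, and every array held 4 pooled samples. The spread between the 2 arrays of a type is therefore a spread between pools, not between mice.

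Progression from G1 into S phase is gated by the retinoblastoma protein and its relatives, which hold E2F transcription factors inactive until they are phosphorylated. Mitogens raise the D cyclins, and a D cyclin with CDK4 or CDK6 begins that phosphorylation. Inhibitors of the INK4 family, which includes p18INK4c (Cdkn2c) and p19INK4d (Cdkn2d), bind CDK4 and CDK6. Inhibitors of the CIP/KIP family, p21 (Cdkn1a), p27 (Cdkn1b) and p57 (Cdkn1c), block cyclin E and cyclin A complexes and can also help D cyclins assemble with their kinases. In blood, stem cells and naive lymphocytes rest outside the cycle, antigen receptor or mitogen stimulation brings lymphocytes into it, and red cell precursors divide rapidly before they exit for good. These arrays measured RNA, and much of the control of p27 and of the D cyclins is exerted on the protein.

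RefSeq promoter windows (build GRCm38.p6, 250 bases before to 50 after the annotated start) were at hand for 7 of the 10 genes, in 10 windows. Those of Ccnd1, Ccnd2 and Cdkn1c are not shown here. Below stand the windows of Cdk4 and Cdk6, the kinases whose RNA was higher in both kinds of activated T cell, and of the INK4 genes Cdkn2c and Cdkn2d, which were high in nucleated erythrocytes. Capitals mark CACGTG, the E-box word bound by MYC and related factors. The windows lie at chr10:127063285-127063584 on the plus strand (Cdk4), chr5:3343643-3343942 on the plus strand (Cdk6), chr4:109665323-109665622 on the minus strand (second start of Cdkn2c) and chr9:21291160-21291459 on the minus strand (Cdkn2d).
Cdk4: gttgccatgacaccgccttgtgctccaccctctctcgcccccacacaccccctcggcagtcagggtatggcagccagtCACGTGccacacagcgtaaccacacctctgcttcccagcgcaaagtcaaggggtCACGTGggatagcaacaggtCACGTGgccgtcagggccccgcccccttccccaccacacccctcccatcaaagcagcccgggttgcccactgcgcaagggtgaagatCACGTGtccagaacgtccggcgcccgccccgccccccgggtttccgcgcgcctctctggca
Cdk6: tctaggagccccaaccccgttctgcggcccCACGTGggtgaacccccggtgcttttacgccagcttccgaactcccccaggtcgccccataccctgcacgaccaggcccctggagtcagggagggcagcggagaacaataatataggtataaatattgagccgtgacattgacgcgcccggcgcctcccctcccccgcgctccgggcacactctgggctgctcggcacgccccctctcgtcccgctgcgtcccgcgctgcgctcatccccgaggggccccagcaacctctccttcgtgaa
Cdkn2c (second start): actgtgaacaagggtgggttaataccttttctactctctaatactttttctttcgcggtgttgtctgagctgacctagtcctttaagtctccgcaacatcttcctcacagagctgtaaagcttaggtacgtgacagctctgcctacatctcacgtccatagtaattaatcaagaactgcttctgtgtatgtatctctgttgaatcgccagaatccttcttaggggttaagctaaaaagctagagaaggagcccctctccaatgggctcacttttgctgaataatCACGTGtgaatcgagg
Cdkn2d: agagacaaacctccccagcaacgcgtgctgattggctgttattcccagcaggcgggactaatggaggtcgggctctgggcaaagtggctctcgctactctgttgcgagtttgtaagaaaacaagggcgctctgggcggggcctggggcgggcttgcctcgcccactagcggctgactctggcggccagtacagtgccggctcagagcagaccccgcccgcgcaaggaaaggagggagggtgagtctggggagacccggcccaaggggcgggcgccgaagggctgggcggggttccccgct

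The Cdk4 window held 4 copies of CACGTG, with first bases at -172, -118, -98 and -11 from the start. The Cdk6 window held 1 copy, at -220, and the second Cdkn2c start held 1, at 35. The first Cdkn2c start, whose window is not printed, held none, and neither did the Cdkn2d window. Of 32851 windows of the same length, 7.15% held at least 1 copy and 0.0244%, or 8 windows, held 4 or more; the word reads the same on both strands. A FOXO word, GTAAACA, stood in 1 member window, that of the first Ccnd3 start at -243 on the opposite strand, against 3.65% of all windows. None of the 10 member windows held an E2F word (TTTCCCGC, TTTCGCGC, TTTGCCGC or TTTGGCGC), against 2.26% of all windows, or the GATA word AGATAA, against 11.2%, both strands being read. A match describes these letters and is not a measured binding site.

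Values below are log2 expression values as deposited, so that a difference of 1 is 2-fold, and the 2 arrays of a type are given in the order of their numbers. A log2 value above 5 in at least 2 arrays was required for a test, and values near 2 to 3 lie at the background of this summary. Probe sets of a gene are numbered from the brightest, and no level is compared between probe sets or genes. A probe set was called higher or lower in a comparison where limma's test across 18726 probe sets gave an adjusted p under 0.05 together with a log2 difference of at least 1. A value after ± is the SE of the fitted difference, from 2 arrays per type. Where 1 of the groups compared lies at background, as Cdkn1a does in naive T cells, the difference starts from that floor, so its size is a lower limit that the SE does not cover. In bulk RNA, fewer cells of a kind and less RNA per cell cannot be told apart.

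List averages of markers followed the labels for most types, though single markers did not always. LT-HSC markers averaged 11.14 and 10.29 in LT-HSC arrays and at most 3.89 elsewhere. Activated T markers averaged 10.14 to 11.53 in the 4 activated arrays and at most 5.94 elsewhere. Of these, Cd69 was also high in naive T cells, at 11.26 in CD4 and 11.52 in CD8, against 12.54 and 12.53 when activated. Among monocyte markers, Csf1r, at 13.83, and Cd14, at 9.73, were highest in monocytes. Cx3cr1 averaged 5.36 there against at most 5.22 elsewhere, and Ccr2 averaged 5.59 there but 9.5 in NK cells. For CD4 cells 1 of the 2 defining genes, Cd4 itself, stayed at background through its brightest probe set. The other, Zbtb7b, averaged 5.77 in naive and 5.57 in activated CD4 T cells, against 3.88 and 3.64 in CD8 T cells. It was not confined to CD4 T cells, with 6.83 in monocytes and 5.78 in granulocytes. The 5 granulocyte markers averaged 8.73 and 10.09 in nucleated erythrocytes, and 6.83 and 7.48 in monocytes, beside 13.05 and 12.82 in granulocytes and at most 2.71 in the other types. Elane, 1 of the 5, read 2.47 and 2.46 in erythrocytes, but only 5.47 and 3.16 in granulocytes themselves. The erythroid markers averaged 5.8 and 4.36 in granulocytes. Y-linked Eif2s3y was high, at 10.73 to 12.84, in all 4 activated arrays and in the naive CD4 and CD8 arrays numbered 1, against at most 3.45 in the other 14 arrays, although the labels give females. Each activation result was therefore also computed without the naive arrays numbered 1 and without those numbered 2. Xist, an RNA of female cells, read 3.93 and 8.14 in activated CD4 and 2.23 and 8.99 in activated CD8 arrays. In the naive arrays numbered 1 it read 4.28 in CD4 and 9.88 in CD8, so neither fit matches the arrays for sex. The 5 prime Gapdh control probe set, a sign of RNA length, read 7.42 to 8.81 in activated arrays and 3.89 to 4.45 in naive arrays. In granulocytes it read 8.26 and 8.23. The 3 prime Gapdh probe set was higher too, at 14.66 to 15.08 in activated against 13.07 to 13.58 in naive arrays. Hence 5 prime Gapdh alone does not part RNA length from Gapdh level. The 5 prime actin control read 4.1 and 3.94 in activated against 3.57 and 3.76 in naive CD4 arrays. In CD8 arrays it read 5.55 and 4.8 against 3.89 and 3.86. Replicate arrays correlated at 0.945 in monocytes, the lowest, and 0.9879 in B cells, the highest, across tested genes. The part of these differences in the results below was not tested, except where a value without the arrays is given.

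**Figure D1:**
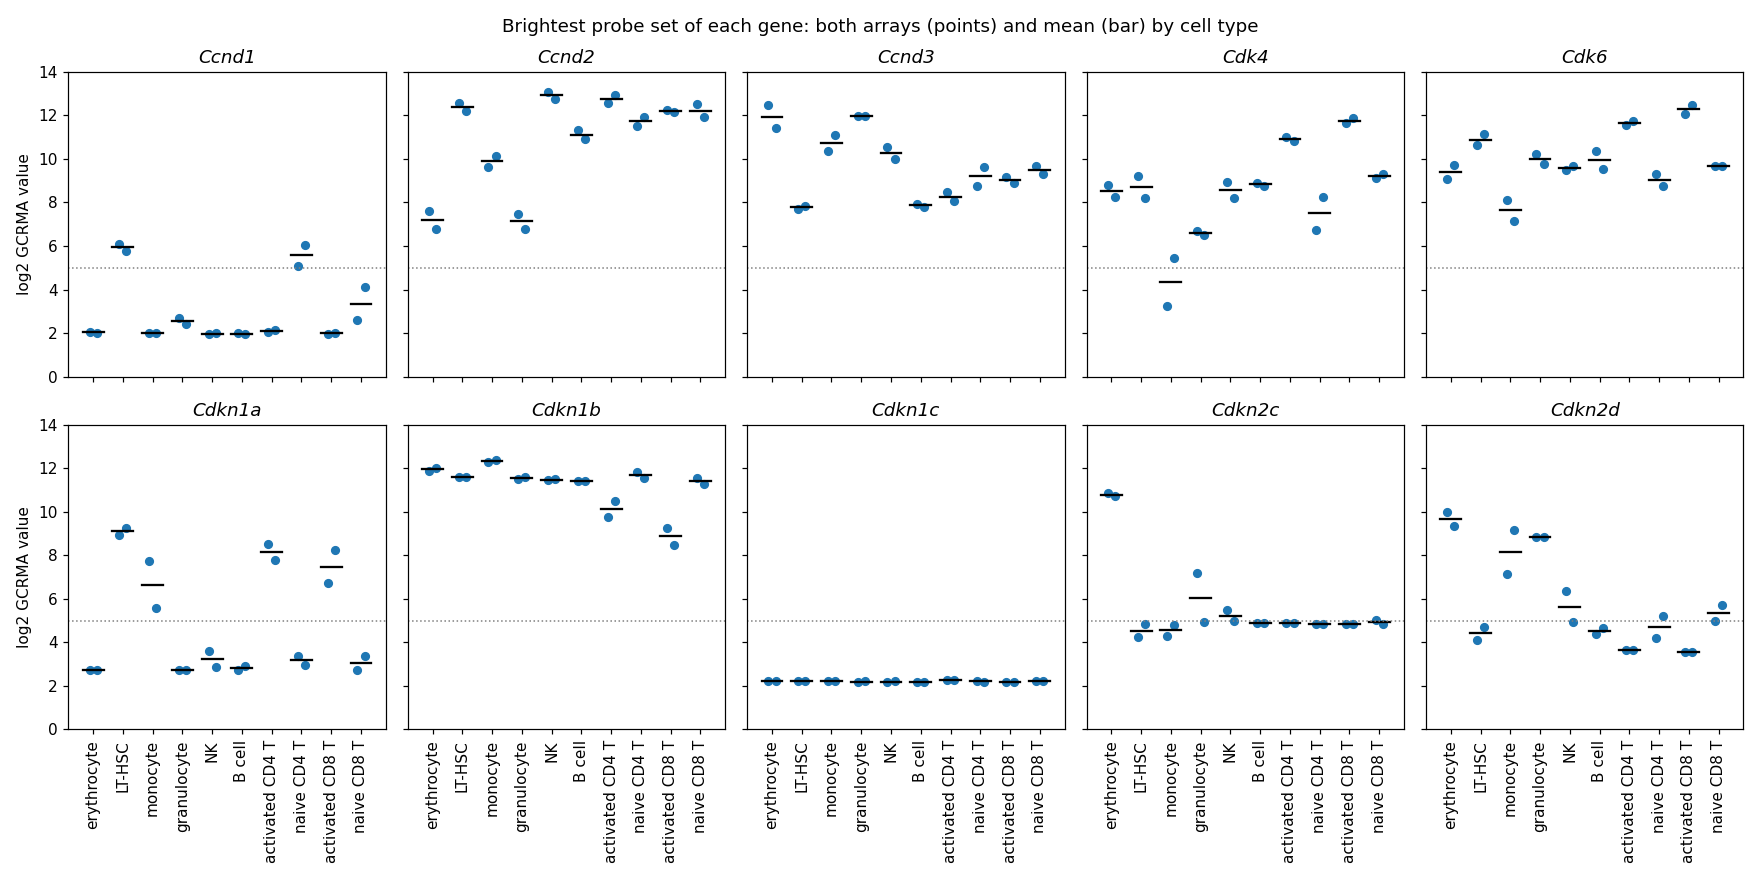
Log2 GCRMA value (vertical axis) of the brightest probe set of each of the 10 genes in 10 cell types (horizontal axis); points are the 2 arrays, the bar is their mean and the dotted line is the filter at 5. Cdkn2c stands at 10.85 and 10.72 in erythrocytes, Cdkn1b is lowest in activated CD8 T cells, and Cdkn1c is flat in every type.

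Ccnd1, the D cyclin of many epithelial tissues, was seen in few blood types. Its only tested probe set read 6.10 and 5.79 in LT-HSC, 5.09 and 6.05 in naive CD4 T cells, and 2.61 and 4.10 in naive CD8 T cells. Every array of the other 7 types lay between 1.94 and 2.69. LT-HSC and naive CD4 T arrays overlapped, and both stood apart from the rest. A dimmer probe set, which did not pass the filter, read 4.29 and 3.69 in LT-HSC and at most 2.94 elsewhere; the remaining probe set was flat between 2.08 and 2.20.

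Ccnd2, the D cyclin that lymphocytes induce on stimulation, had 7 probe sets and all were tested. The brightest read 13.08 and 12.77 in NK cells, 12.59 and 12.94 in activated CD4 T cells, 12.55 and 12.20 in LT-HSC, 12.53 and 11.91 in naive CD8 T cells and 12.24 and 12.17 in activated CD8 T cells. It then descended through naive CD4 T cells at 11.50 and 11.94, B cells at 11.34 and 10.90 and monocytes at 9.65 and 10.12. It was lowest in erythrocytes, at 7.59 and 6.78, and granulocytes, at 7.49 and 6.76, whose arrays overlapped. NK cells and activated CD4 T cells overlapped at the top, LT-HSC and both CD8 groups overlapped next, and naive CD4 T cells overlapped naive CD8 T cells by 1 array; B cells and monocytes each stood apart from their neighbours. Probe set 3 drew a different picture among T cells, with 11.05 and 11.12 in activated CD4, 11.03 and 10.82 in activated CD8, 7.83 and 7.55 in naive CD4 and 9.40 and 8.31 in naive CD8 T cells. Over the 10 type means, Pearson correlations between the 7 probe sets ran between 0.47 for probe sets 1 and 7 and 0.991 for probe sets 2 and 4, as a description with no test. All 7 were lower in each erythrocyte and granulocyte mean than in the LT-HSC mean.

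Ccnd3, the D cyclin used in late red cell precursors and developing lymphocytes, had its highest levels outside the lymphoid types. Probe set 1 read 12.47 and 11.41 in erythrocytes, 11.99 and 11.97 in granulocytes, and 10.35 and 11.09 in monocytes. NK cells followed with 10.55 and 9.99, overlapping the monocytes. Naive CD8, naive CD4 and activated CD8 T arrays overlapped between 8.75 and 9.69, activated CD4 T cells read 8.46 and 8.06, and B cells, at 7.94 and 7.79, overlapped LT-HSC, at 7.70 and 7.84, at the bottom.

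A second Ccnd3 probe set gave another order. It read 10.68 and 10.23 in monocytes, 8.59 and 8.75 in NK cells and 8.52 and 8.50 in B cells. In erythrocytes, where probe set 1 was high, it read 4.19 and 4.91, and in activated T cells of both kinds it lay between 4.09 and 4.48. The 2 LT-HSC arrays disagreed on it, at 7.20 and 4.29. Over the 10 type means the 2 probe sets correlated at 0.155 (Pearson), so Ccnd3 results are given for each. Another Ccnd3 probe set passed 5 in 1 array only, a monocyte array at 6.02.

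**Figure D2:**
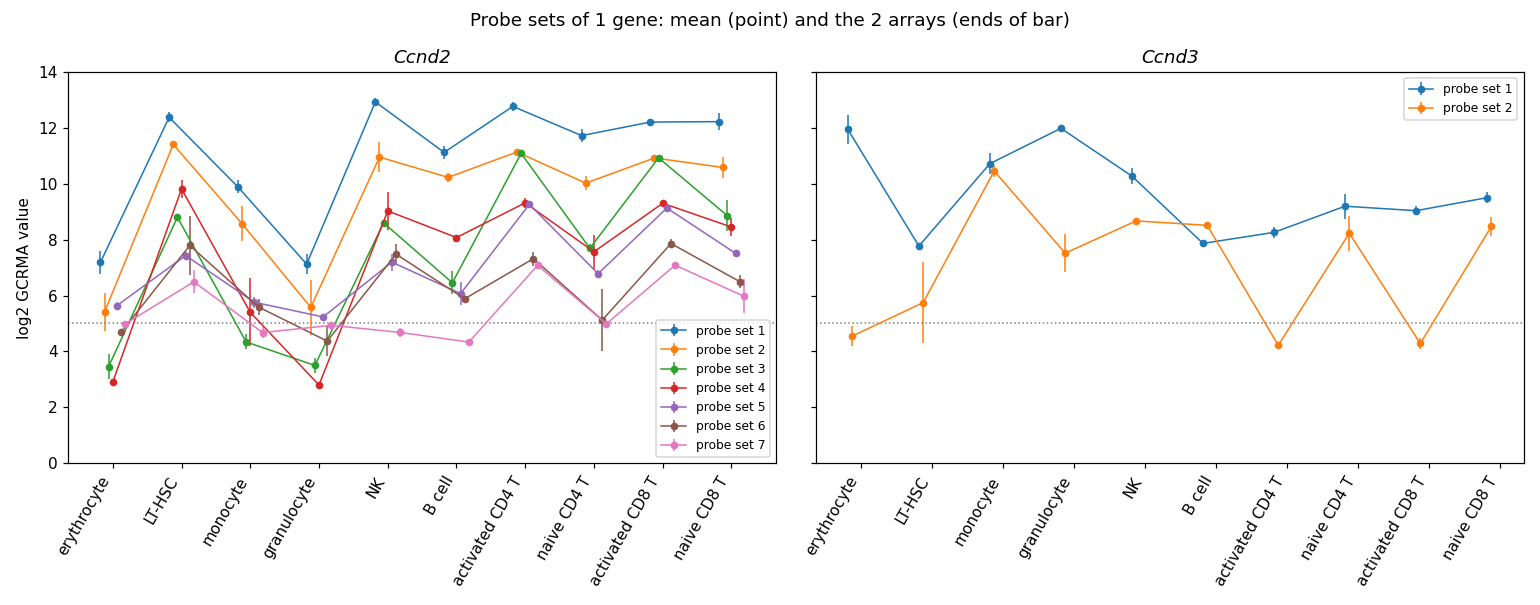
Log2 GCRMA value (vertical axis) of the 7 Ccnd2 probe sets (left) and the 2 tested Ccnd3 probe sets (right) by cell type; points are means, bars end at the 2 arrays and the dotted line is the filter at 5. Ccnd2 probe set 1 is lowest in erythrocytes and granulocytes, whereas probe set 7 is lowest in B cells, and the Ccnd3 probe sets part in erythrocytes and in activated T cells.

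Cdk4, a kinase activated by D cyclins, was highest in activated T cells. Probe set 1 read 11.64 and 11.88 in activated CD8 and 11.03 and 10.81 in activated CD4 T cells, with no overlap between them, and 9.13 and 9.29 in naive CD8 T cells. B cells at 8.90 and 8.75, LT-HSC at 9.22 and 8.19, NK cells at 8.94 and 8.21, erythrocytes at 8.78 and 8.23 and naive CD4 T cells at 6.74 and 8.26 formed a run of overlapping neighbours. Granulocytes, at 6.70 and 6.52, and monocytes, at 3.25 and 5.43, were lowest and apart. The 3 Cdk4 probe sets correlated at 0.851 to 0.992 over the type means.

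Cdk6, the other D cyclin kinase and the one known for its weight in blood cells, read 12.05 and 12.50 in activated CD8 T cells, 11.55 and 11.72 in activated CD4 T cells and 10.64 and 11.13 in LT-HSC through probe set 1. These 3 types stood apart from each other and from the rest. Granulocytes at 10.22 and 9.75, B cells at 10.37 and 9.53, naive CD8 T cells at 9.68 and 9.68, NK cells at 9.48 and 9.68, erythrocytes at 9.06 and 9.71 and naive CD4 T cells at 9.29 and 8.77 overlapped in turn, and monocytes were lowest at 8.11 and 7.17. Probe set 2 placed LT-HSC first, at 8.97 and 9.46, apart from activated CD8 T cells at 8.59 and 8.26. Naive CD4 T cells, at 6.64 and 6.60, and naive CD8 T cells, at 6.90 and 6.35, came last. The 2 probe sets correlated at 0.477, and another was flat at 1.72 to 1.82.

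Cdkn1a, which encodes p21, the classical target of p53, was on in 4 types and at background in 6. It read 8.95 and 9.28 in LT-HSC, 8.51 and 7.78 in activated CD4 T cells, 6.71 and 8.26 in activated CD8 T cells and 7.74 and 5.57 in monocytes. LT-HSC stood apart, and the next 3 types overlapped. No array of the other 6 types exceeded 3.59. The second probe set of the gene was flat at 1.82 to 1.91.

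Cdkn1b, which encodes p27, was bright everywhere, and what varied was how low it went. It read 12.31 and 12.37 in monocytes and 11.89 and 12.01 in erythrocytes, each apart from the next type. Naive CD4 T cells, LT-HSC, granulocytes, NK cells, B cells and naive CD8 T cells all lay between 11.26 and 11.84. Activated CD4 T cells, at 9.74 and 10.49, and activated CD8 T cells, at 9.28 and 8.47, were below all other arrays and apart from each other. A second probe set stayed at 2.49 to 2.99.

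Cdkn1c, which encodes p57 and is imprinted, had a single probe set that read 2.18 to 2.27 on all 20 arrays. It did not pass the filter and has no test. Knockout mice have given p57 a role in stem cell quiescence, and its probe set lay at background here in LT-HSC as in every other type, so these arrays give no level for it.

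Cdkn2c, which encodes p18INK4c, was highest in erythrocytes. It read 10.85 and 10.72 in erythrocytes, 7.17 and 4.92 in granulocytes and between 4.25 and 5.49 in the 16 arrays of the other types. The granulocyte arrays disagreed, and the array with 7.17 is also the one in which the erythroid factor Klf1 read 5.32, against 1.91 in its partner, beside 13.52 and 13.33 in erythrocytes. Alas2, of heme synthesis, read 11.49 and 10.02 in those granulocyte arrays.

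Cdkn2d, which encodes p19INK4d, was high in erythrocytes and in both myeloid types. It read 9.97 and 9.36 in erythrocytes, 8.86 and 8.86 in granulocytes and 7.16 and 9.18 in monocytes. Of the 5 granulocyte markers, Mmp8 read 7.11 and 11.48 and Ltf 7.72 and 8.97 in the same monocyte arrays. Camp, at 5.09 and 3.83, Ngp, at 11.77 and 11.3, and Elane, at 2.45 and 1.84, went the other way. The part of these markers was not tested. NK cells at 6.36 and 4.93, naive CD8 T cells at 4.97 and 5.72, naive CD4 T cells at 4.18 and 5.20, B cells at 4.38 and 4.64 and LT-HSC at 4.12 and 4.71 overlapped in turn. Activated CD4 T cells, at 3.63 and 3.65, and activated CD8 T cells, at 3.58 and 3.56, were lowest.

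Activated CD4 T cells differed from naive CD4 T cells in 13 of the 19 tested member probe sets, 10 higher and 3 lower, where 30.1% of all tested probe sets were called, 14.2% higher and 15.9% lower. The median difference of the 19 was 1.75, against 0.025 over all tested probe sets, and 7 of the 19 belong to Ccnd2 alone. Cdkn1a rose by 4.97 ± 0.61 (adjusted p = 5.89e-05), and all 3 Cdk4 probe sets rose, by 3.42 ± 0.62, 3.79 ± 0.53 and 5.56 ± 0.51. Naive CD4 T cells lay at background for Cdkn1a and for Cdk4 probe set 3, so the rises of 4.97 and 5.56 are lower limits. Cdk6 rose by 2.61 ± 0.38 at probe set 1, while probe set 2 differed by 0.94 ± 0.42 and was not called. It was called at 1.66 without activated CD4 T replicate 1.

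Among the cyclins of CD4 T cells, Ccnd1 fell by 3.46 ± 0.40 (adjusted p = 3.51e-05), so that both activated arrays were at background. Of the 7 Ccnd2 probe sets 5 rose, probe set 3 by 3.40 ± 0.40 and probe set 5 by 2.48 ± 0.29, and 2 did not pass. The brightest, probe set 1, rose by 1.05 ± 0.36 (adjusted p = 0.0373). That call was lost without naive CD4 T replicate 1, at 0.825, and without activated CD4 T replicate 1, at 1.22, or replicate 2, at 0.87. Probe set 6 rose by 2.20, and its call was lost at 1.09 without naive CD4 T replicate 1, at 2.45 without activated replicate 1 and at 1.95 without activated replicate 2. Its value without naive CD4 T replicate 2 was 3.31. Probe set 4, at 1.75 and not called, was called at 2.37 without naive CD4 T replicate 2, and likewise at 1.75 without either monocyte array. Ccnd3 fell by 4.01 ± 0.74 at probe set 2 (adjusted p = 0.00102), and its probe set 1 differed by -0.94 ± 0.39 (adjusted p = 0.0867), called at -1.38 without naive CD4 T replicate 1. The activated CD4 arrays, at 4.21 and 4.23, lay near the lowest value of Ccnd3 probe set 2 on any array, 4.09. The size of that fall may therefore be a lower limit.

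Of the inhibitors, Cdkn1b fell by 1.58 ± 0.29 in activated CD4 T cells (adjusted p = 0.000981). That call was lost, at an adjusted p of 0.0574 in limma, when only the 4 CD4 arrays were fitted. Cdkn2c, at background in both groups, differed by 0.03 ± 0.51, and Cdkn2d by -1.05 ± 0.60 (adjusted p = 0.215). Without the naive arrays numbered 2, all arrays compared had high Eif2s3y, although their Xist values still differed. Cdkn1a then stood at 4.76, Cdk4 probe set 1 at 4.18, Ccnd1 at -2.98 and Cdkn1b at -1.73. Without the naive arrays numbered 1, those genes stood at 5.19, 2.66, -3.94 and -1.43.

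Activated CD8 T cells differed from naive CD8 T cells in 13 of 19 member probe sets as well, 9 higher and 4 lower, where 28.4% of all tested were called, 14.1% higher and 14.3% lower. Cdkn1a rose by 4.45 ± 0.61 (adjusted p = 0.000158), again a lower limit, with naive CD8 T cells at background. Cdk4 rose at all 3 probe sets, by 2.55 ± 0.62, 2.15 ± 0.53 and 4.23 ± 0.51, and Cdk6 at both, by 2.60 ± 0.38 and 1.80 ± 0.42. The second Cdk6 call was lost, at 1.53, without naive CD8 T replicate 2. Cdkn1b fell by 2.53 ± 0.29 (adjusted p = 3.84e-05), and Ccnd3 fell by 4.19 ± 0.74 at probe set 2 but differed by only -0.47 ± 0.39 at probe set 1. At Ccnd3 probe set 2 the activated CD8 arrays read 4.48 and 4.09, again near its lowest value.

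Ccnd2 moved in CD8 T cells at 3 of its 7 probe sets. Probe set 3 rose by 2.07 ± 0.40, probe set 5 by 1.62 ± 0.29 and probe set 7 by 1.11 ± 0.35, whereas the brightest differed by -0.02 ± 0.36. The call of probe set 3 was lost, at an adjusted p of 0.061 in limma, when only the 4 CD8 arrays were fitted. The call of probe set 7 was lost without naive CD8 T replicate 2, at 0.505, and without activated CD8 T replicate 1, at 1.20, or replicate 2, at 1.03, and its value was 1.72 without naive CD8 T replicate 1. Ccnd1 fell by 1.37 ± 0.40 (adjusted p = 0.0185), a fall carried by the naive array at 4.10: it was -0.625 and not called without naive CD8 T replicate 2, and -2.12 without replicate 1. That call was also lost at -1.35 and -1.40 without either activated CD8 array. Cdkn2d fell by 1.78 ± 0.60 (adjusted p = 0.0383) to the background of its probe set. This call was lost without any array of the 2 CD8 groups, at -1.40 to -2.15, and also without either activated CD4, B cell or granulocyte array, at an unchanged -1.78, so it rests at the threshold. Without the naive arrays numbered 2, 9 member probe sets were called, with Cdkn1a at 4.77, Cdk4 probe set 1 at 2.63 and Cdkn1b at -2.67; without those numbered 1, 12 were called.

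The 2 kinds of T cell were then compared in their response. No member probe set passed limma's test of the difference between the CD8 and the CD4 response, where 0.513% of all tested probe sets did, and 4 of 19 had an unadjusted p under 0.05. The CD8 minus CD4 response of Ccnd1 was 2.09 ± 0.56 (adjusted p = 0.205), called at 2.84 without naive CD8 T replicate 2. Both activated groups lay at background for Ccnd1, so this value restates the gap between the naive groups, with means of 3.355 in CD8 and 5.57 in CD4 T cells, and does not compare responses. For Cdk6 probe set 1 the responses differed by -0.01 ± 0.54, and for Cdkn1b by -0.95 ± 0.41 (adjusted p = 0.792).

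**Figure D3:**
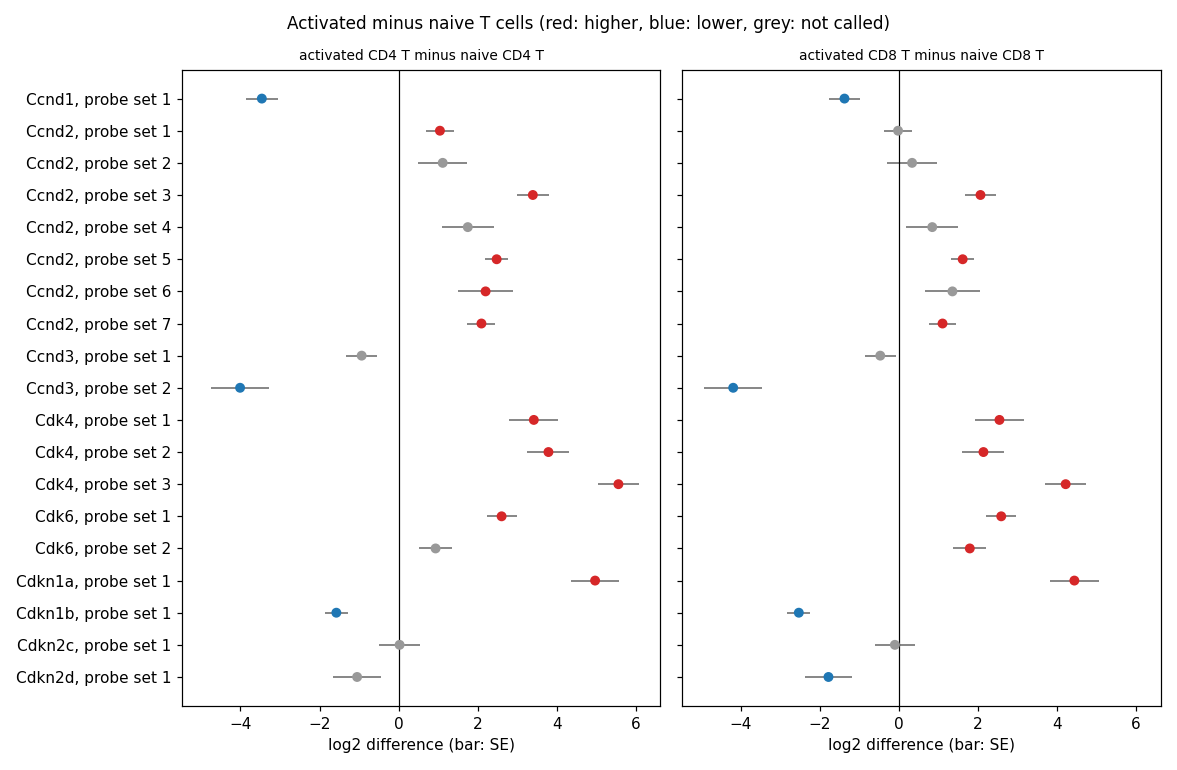
Log2 difference (horizontal axis) of the 19 tested member probe sets (rows) between activated and naive CD4 T cells (left) and CD8 T cells (right); bars are the SE, red is called higher, blue called lower and grey not called. Cdk4 and Cdkn1a lie to the right and Cdkn1b and Ccnd3 probe set 2 to the left in both.

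Genes downstream and upstream of these members were read as lists, each gene by its brightest probe set. Of 9810 genes, 32.4% were called on activation of CD4 T cells, 14.5% higher and 17.8% lower, and 29.5% on activation of CD8 T cells, 14.1% higher and 15.4% lower. No list gene passed the test of the difference between the responses, where 0.591% of genes did, 0.275% higher and 0.316% lower in CD8. S phase genes rose in 12 of 19 tested in CD4 and 13 of 19 in CD8 T cells and fell in none, with Gins1, of the replicative helicase, at 3.46 ± 0.64 and 4.35 ± 0.64 and the helicase loader Cdc6 at 2.99 ± 0.84 and 4.33 ± 0.84. Few mitosis genes were called: Mki67, a proliferation antigen, fell by 2.60 ± 0.73 in CD4 and the spindle checkpoint kinase Bub1b rose by 2.10 ± 0.65 in CD8 T cells, and the other 14 of 15 in each did not pass. The median difference of the mitosis list was -0.29 in CD4 and 0.965 in CD8 T cells, against 0.022 and -0.02 over all genes. In the pocket protein and E2F list 3 rose and 3 fell of 12 in CD4, and 3 rose and 2 fell in CD8 T cells. Tfdp1, the partner of E2F factors, rose by 2.22 ± 0.36 and 2.96 ± 0.36, and Rbl2, the pocket protein of resting cells, fell, at -3.05 ± 0.53 in CD4 and -1.99 ± 0.53 in CD8 T cells. E2f1 rose by 2.86 ± 0.59 in CD8 T cells.

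Among the later cyclins, their kinases and CDC25 phosphatases, 2 of 14 rose and 2 fell in CD4 T cells, and 5 rose and 2 fell in CD8 T cells. Cdc25a, which activates CDKs at the start of S phase, rose by 1.47 ± 0.29 in CD4 and 2.28 ± 0.29 in CD8 T cells, while Cdc25b, of mitotic entry, fell, at -4.26 ± 0.65 and -3.14 ± 0.65. Of the genes for turnover of p27 and of the cyclins 5 of 14 rose in each, and 1 fell in CD8 T cells. Cks2 rose by 2.79 ± 0.38 and 2.35 ± 0.38, and Cks1b, the SCF-SKP2 cofactor that presents p27 for degradation, rose by 2.12 ± 0.56 in CD8 T cells. Rnf123, the catalytic subunit of a cytoplasmic p27 ubiquitin ligase, fell by 1.47 ± 0.30 in CD8 T cells.

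FOXO factors, which drive Cdkn1b transcription in resting cells, and their target genes fell in 9 of 10 tested in CD4 and 7 of 10 in CD8 T cells, with none higher, a median of -2.87 and -3.20 against 0.022 and -0.02 over all genes. Pik3ip1, an inhibitor of PI3 kinase, fell, at -7.45 ± 0.66 and -5.66 ± 0.66, as did Txnip in CD4, at -5.52 ± 0.48, and Klf2, a factor of naive T cell traffic, in CD8 T cells, at -4.48 ± 0.77. Foxo4 differed by -0.61 ± 0.28 and -0.42 ± 0.28 and was not called. The p53 target list, to which Cdkn1a also belongs by function but not in this count, did not move together: 2 of 11 rose and 3 fell in each. Perp, of apoptosis, rose by 2.72 ± 0.96 and 4.28 ± 0.96 and the exonuclease gene Aen by 1.83 ± 0.28 and 1.78 ± 0.28, while the antiproliferative gene Btg2 fell, at -4.01 ± 0.44 and -3.29 ± 0.44.

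LT-HSC were compared with the mean of the other 9 types. Of 19 member probe sets 13 were called, 9 higher and 4 lower, where 38.5% of all tested were called, 20% higher and 18.5% lower. Cdkn1a was higher by 4.67 ± 0.46 (adjusted p = 2.59e-06) and Ccnd1 by 3.33 ± 0.30 (adjusted p = 1.03e-06). Ccnd2 was higher at 6 of 7 probe sets, by 1.08 to 2.83, with probe set 5 at 0.48 ± 0.22 not called. Of these, probe set 6, at 1.70, lost its call at 0.65 without LT-HSC replicate 1 and stood at 2.75 without replicate 2, and probe set 7, at 1.08, lost its call at 0.665 without replicate 2. For Ccnd2 the mean of the other 9 types includes the low granulocytes and erythrocytes, at 7.125 and 7.185 at probe set 1. There NK cells, at 12.925, and activated CD4 T cells, at 12.765, exceeded LT-HSC, at 12.375. Both activated T types exceeded LT-HSC at Ccnd2 probe sets 3, 5 and 7, and LT-HSC had the highest mean only at probe sets 2 and 4. Cdk6 was higher by 1.71 ± 0.31 at probe set 2, and by 0.98 ± 0.28 at probe set 1, just under 2-fold (adjusted p = 0.0114). Probe set 1 was called, at 1.00 to 1.22, when any of 7 arrays was left out: LT-HSC 1, naive CD4 T 1, activated CD8 T 2, B cell 1, monocyte 1, granulocyte 1 or erythrocyte 2.

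Lower in LT-HSC than the mean of the other 9 types were Ccnd3 and both INK4 genes, a mean that includes the high erythrocytes. LT-HSC averaged 4.545 for Cdkn2c, beside 4.56 in monocytes, and 4.415 for Cdkn2d, beside 4.51 in B cells. Ccnd3 was lower, at -2.09 ± 0.29 at probe set 1 (adjusted p = 6.23e-05). At probe set 2 the difference of -1.47 ± 0.55 rested on LT-HSC replicate 2: it was -0.012 without that array and -2.92 without replicate 1, and the call was also lost, at -1.43 to -1.48, without any of 9 arrays of NK, naive CD8 T, activated T, B and erythrocyte cells. Cdkn2c, with LT-HSC and most other types near its background, differed by -1.13 ± 0.38, a call lost without LT-HSC replicate 1, at -0.831, and without replicate 2, at -1.42. Cdkn2d differed by -1.60 ± 0.45, a call lost at -1.30 without LT-HSC replicate 1. Cdk4 was not called at its 3 probe sets, at 0.23, 0.78 and -0.71, although probe set 3 was called at -1.45 without LT-HSC replicate 1. Cdkn1b, at 0.40 ± 0.22, was not called. Platelet and megakaryocyte markers averaged 4.26 and 6.46 in LT-HSC arrays, beside at most 3.74 in the other types except erythrocytes, at 6.11 and 5.97, and their part was not tested.

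Set against the mean of the 2 naive T cell types, another largely resting population, LT-HSC differed in 9 member probe sets, 7 higher and 2 lower, where 39.3% were called, 19.3% higher and 20% lower. Cdkn1a was higher by 6.01 ± 0.53 (adjusted p = 9.2e-07), a lower limit with naive T cells at background, Ccnd1 by 1.48 ± 0.34 and Cdk6 by 1.53 ± 0.33 and 2.59 ± 0.36. The naive mean joins unlike Ccnd1 levels, 5.57 in CD4 and 3.355 in CD8 T cells. LT-HSC, at 5.945, overlapped the naive CD4 arrays, so the Ccnd1 difference comes mostly from naive CD8 T cells. Cdkn1b differed by only 0.06 ± 0.25 and Cdk4 probe set 1 by 0.35 ± 0.54, neither called. Neither INK4 gene was called, with Cdkn2c at -0.36 ± 0.44 (adjusted p = 0.564) and Cdkn2d at -0.60 ± 0.52 (adjusted p = 0.382). Ccnd3 was lower, at -1.58 ± 0.34 at probe set 1 and at -2.61 ± 0.64 at probe set 2, the second lost at -1.15 without LT-HSC replicate 2 and -4.06 without replicate 1. Ccnd2 was higher at probe sets 4, 6 and 7, by 1.81, 1.98 and 1.01, and each of these calls depended on single arrays. Probe set 4 was not called without LT-HSC replicate 1, naive CD4 T replicate 1 or naive CD8 T replicate 2, at 1.48 to 1.65. Probe set 6 was not called without LT-HSC replicate 1, at 0.93, and stood at 3.03 without replicate 2. Probe set 7 was not called without LT-HSC replicate 2, at 0.6, or without the second naive CD4 or CD8 array, at 0.962 and 0.707.

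The lists around the members showed no common direction in LT-HSC, where 39.6% of genes were called against the other 9 types, 18.3% higher and 21.4% lower. S phase genes were higher in 2 and lower in 4 of 19, and mitosis genes higher in 1 and lower in 6 of 15. The mean of the other 9 types includes erythrocytes, where the mitosis list averaged 12.24 and 12.09. That list averaged 6.01 and 6.71 in LT-HSC, beside 6.43 and 5.88 in naive CD4 T cells and 5.4 and 5.49 in B cells. Pocket proteins and E2F factors were higher in 5 and lower in 2 of 12. Among them the repressor E2f7 was higher by 4.03 ± 0.47 and E2f6 by 2.28 ± 0.58, and E2f2 was lower, at -3.26 ± 0.39. Of the p53 targets 2 of 11 were higher, Perp by 5.59 ± 0.72 and Plk2 by 5.17 ± 0.78, and 1 was lower. In the imprinted domain that holds Cdkn1c, Cd81 was higher by 3.52 ± 0.43 and the non-coding Kcnq1ot1 by 1.55 ± 0.36, and the other 4 of 6 tested were not called. Against naive T cells, where 41.4% of genes were called, 16.9% higher and 24.5% lower, 6 of 12 pocket proteins and E2F factors were higher and 2 lower, with E2f7 at 5.25 ± 0.55 and E2f3 at 3.64 ± 0.43. S phase genes gave 1 call each way, and Bub1b, at 2.65 ± 0.57, was the 1 mitosis gene called of 15. The FOXO target Il7r, the receptor chain for interleukin-7, was lower, at -11.9 ± 0.57.

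Nucleated erythrocytes combined high INK4 inhibitors and low Ccnd2 with high Ccnd3 at probe set 1 only. Against the mean of the other 9 types 12 of 19 member probe sets were called, 3 higher and 9 lower, where 50.8% of all tested were called, 18.9% higher and 31.9% lower. Cdkn2c was higher by 5.81 ± 0.38 (adjusted p = 2.56e-08), Cdkn2d by 4.24 ± 0.45 (adjusted p = 2.49e-06) and Ccnd3 probe set 1 by 2.54 ± 0.29 (adjusted p = 5.66e-06). Ccnd3 probe set 2 went the other way, at -2.79 ± 0.55, with erythrocyte arrays at 4.19 and 4.91, near its lowest value of 4.09. Ccnd2 was lower at 6 of 7 probe sets, at -1.51 to -4.84, with probe set 7 at -0.60 ± 0.26 not called. The probe set 6 call, at -1.75, was lost without either erythrocyte array, at -1.77 and -1.74. Cdkn1a was lower, at -2.41 ± 0.46, and Ccnd1 at -1.03 ± 0.30, a call lost at -0.943 to -1.05 without the second naive CD4 or CD8 array or either erythrocyte array. Both genes lay at background in most types, erythrocytes included, so these differences come from the types in which they were on.

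Neither kinase was called in erythrocytes. Cdk4 differed by 0.01 ± 0.46, 0.22 ± 0.40 and -0.99 ± 0.38, and probe set 3 was called at -1.46 without erythrocyte replicate 1, and, at up to -1.07, without the second LT-HSC, NK, activated CD4, naive CD8, B cell or granulocyte array or the first naive CD4 or monocyte array. Cdk6 differed by -0.69 ± 0.28 and 0.06 ± 0.31, the first called at -1.01 without erythrocyte replicate 2. Cdkn1b was higher by 0.78 ± 0.22 (adjusted p = 0.00617), under 2-fold and so not called. Granulocyte markers were present in these arrays, as given above, and Cdkn2d and Ccnd3 probe set 1 were high in granulocytes too. The part of granulocyte signal in these values was not tested. Granulocyte arrays read 7.17 and 4.92 for Cdkn2c and 8.86 and 8.86 for Cdkn2d, in each case below both erythrocyte arrays. For Ccnd3 probe set 1 they read 11.99 and 11.97, and overlapped the erythrocyte arrays.

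Relative to LT-HSC, at the other end of the lineage, erythrocytes had 14 of 19 member probe sets called, 3 higher and 11 lower, where 49.2% were called, 19.2% higher and 30% lower. These comparisons share the erythrocyte arrays. All 7 Ccnd2 probe sets were lower, at -1.51 to -6.91, with probe set 6, at -3.11, standing at -2.06 without LT-HSC replicate 1. Ccnd1 was lower, at -3.92 ± 0.40 and Cdkn1a at -6.37 ± 0.61. Cdk6 was lower, at -1.50 ± 0.38 and -1.49 ± 0.42, the second lost at -1.25 without LT-HSC replicate 2. Cdkn2c was higher by 6.24 ± 0.51, Cdkn2d by 5.25 ± 0.60 and Ccnd3 probe set 1 by 4.17 ± 0.39. Cdk4, at -0.20, -0.51 and -0.25, Cdkn1b, at 0.35 ± 0.29, and Ccnd3 probe set 2, at -1.20 ± 0.74, were not called, although the last was called at -2.65 without LT-HSC replicate 2.

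The cycle genes beyond the members were high in erythrocytes, where 55% of genes were called against the other 9 types, 18.4% higher and 36.6% lower. All 19 tested S phase genes were higher, Tk1 by 6.35 ± 0.49 and Cdc6 by 6.09 ± 0.62, and so were 14 of 15 mitosis genes, Ube2c by 8.98 ± 0.32 and the survivin gene Birc5 by 7.45 ± 0.62, with Tpx2 at 1.83 ± 0.87 not called. Of pocket proteins and E2F factors 10 of 12 were higher and 2 lower; E2f7 was higher by 7.20 ± 0.47 and Tfdp2, an erythroid partner of E2F, by 7.06 ± 0.67, and E2f5 and Rbl2 were lower, at -3.25 ± 0.28 and -1.74 ± 0.40. Of the later cyclin list 10 of 14 were higher and 3 lower, with Ccnb2 at 8.20 ± 0.55 and Cdc25c at 8.03 ± 0.62, and Cdk7 and Mnat1, subunits of the CDK-activating kinase, at -1.58 ± 0.33 and -1.64 ± 0.30. Both subunits of the cytoplasmic p27 ligase were higher, Ubac1 by 6.18 ± 0.25 and Rnf123 by 4.11 ± 0.22. In the FOXO list Foxo3 was higher by 2.56 ± 0.16 and Foxo4 by 2.33 ± 0.21, and 6 of 10 genes were lower. Against LT-HSC, where 52.2% of genes were called, 20.2% higher and 32% lower, 18 of 19 S phase genes and 14 of 15 mitosis genes were higher and none lower. Mcm7, of the replicative helicase, differed by 1.21 ± 0.56 and was not called, and E2f2 was higher by 8.67 ± 0.52.

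**Figure D4:**
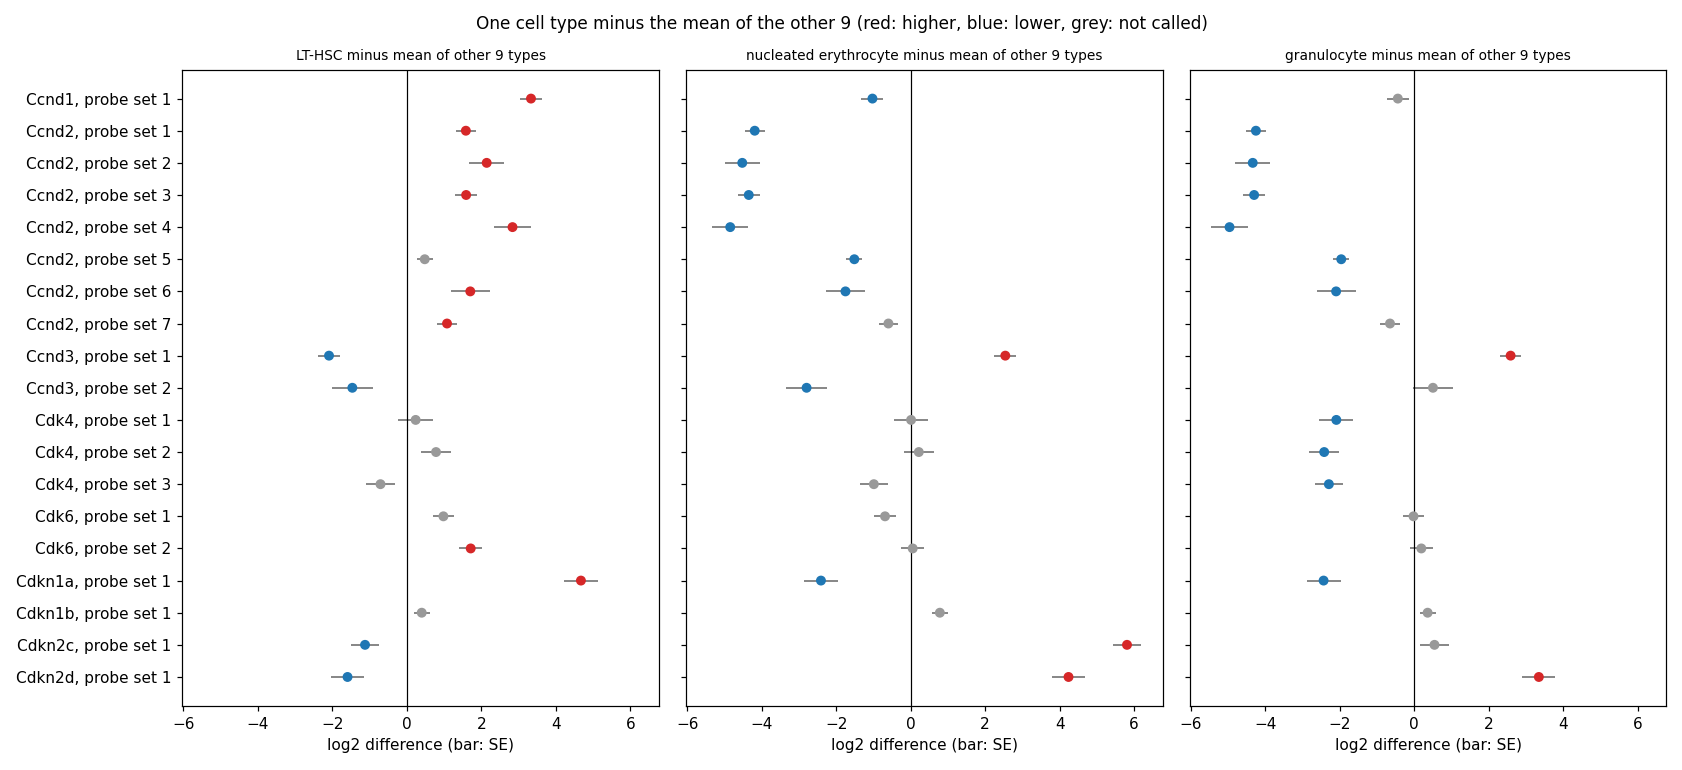
Log2 difference (horizontal axis) of the 19 tested member probe sets (rows) between LT-HSC (left), nucleated erythrocytes (middle) or granulocytes (right) and the mean of the other 9 types; bars are the SE, red is called higher, blue called lower and grey not called. Ccnd2 lies to the right in LT-HSC and to the left in erythrocytes and granulocytes, and Cdkn2d lies to the right in erythrocytes and granulocytes.

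In granulocytes Cdkn2d and Ccnd3 probe set 1 were high, and Ccnd2 and Cdk4 were low. Cdkn1a lay at background there, as it did in erythrocytes, B cells, NK cells and naive T cells. Its difference from the other types thus comes from the types in which it was on. The comparisons of LT-HSC, erythrocytes and granulocytes with the other 9 types share most of their arrays. Of 19 member probe sets 12 were called against the other 9 types, 2 higher and 10 lower, where 44.1% of all tested were called, 20% higher and 24.1% lower. Cdkn2d was higher by 3.34 ± 0.45 (adjusted p = 3.09e-05) and Ccnd3 probe set 1 by 2.59 ± 0.29 (adjusted p = 6.99e-06), while Ccnd3 probe set 2 differed by 0.50 ± 0.55. Cdk4 was lower at all 3 probe sets, at -2.09 ± 0.46, -2.42 ± 0.40 and -2.29 ± 0.38, Cdkn1a at -2.44 ± 0.46 and Ccnd2 at 6 of 7 probe sets at -1.96 to -4.96. The probe set 6 call, at -2.10, was lost at -1.56 without granulocyte replicate 1. Cdk6 differed by -0.02 ± 0.28 and 0.19 ± 0.31 and was not called. Cdkn2c, at 0.54 ± 0.38, was not called, but it was called at 1.67 without granulocyte replicate 2. Beside these, 8 of 15 mitosis genes were higher and none lower, with Mki67 at 2.98 ± 0.54. Of S phase genes 10 of 19 were lower and none higher, with Mcm2 at -2.21 ± 0.34 and Rpa2 at -2.29 ± 0.30. Of all genes 47.3% were called, 21.1% higher and 26.2% lower. The mean of the other 9 types includes erythrocytes, where the S phase list averaged 12.12 and 11.74, and activated T cells, at 9.76 to 11.03. In granulocytes that list averaged 8.28 and 7.64, beside 8.52 and 8.53 in B cells and 5.44 and 6.0 in monocytes. The erythroid markers seen in granulocyte arrays, with the higher value in replicate 1, moved with Cdkn2c. The mitosis list average, at 8.38 and 7.39, and the S phase list average were also higher in replicate 1. The part of the erythroid markers was not tested. The 5 prime actin control probe set also stood apart in granulocytes, at 9.15 and 7.59 against at most 6.31 in the other 18 arrays, as did 5 prime Gapdh, at 8.26 and 8.23, among the types other than activated T cells, where the next array read 6.0; their part was not tested.

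The 2 myeloid types differed from each other in kinases, cyclins and p21. Monocytes against granulocytes gave 9 called member probe sets, 5 higher and 4 lower, where 20.8% were called, 7.02% higher and 13.8% lower, and 5 were called without granulocyte replicate 1. The 5 prime Gapdh control read 4.08 and 6.0 in monocytes, against 8.26 and 8.23 in granulocytes, and the granulocyte markers averaged 6.83 and 7.48 in monocytes, against 13.05 and 12.82; the part of these was not tested. Cdkn1a was higher in monocytes by 3.94 ± 0.61 (adjusted p = 0.000498). Ccnd2 was higher by 2.76 ± 0.36, 2.995 ± 0.63 and 2.60 ± 0.66 at probe sets 1, 2 and 4, and Cdk6 probe set 1 was lower, at -2.35 ± 0.38 (adjusted p = 0.000677). The probe set 4 call was lost at 1.39 without monocyte replicate 2, and at 2.62 and 2.58 without either granulocyte array.

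Monocytes and granulocytes also differed in Cdk4 and Ccnd3, less firmly. Cdk4 was lower, at -2.27 ± 0.62 at probe set 1, a call lost at -1.18 without monocyte replicate 1 and at -2.18 and -2.36 without either granulocyte array. At probe set 2 it was lower, at -2.52 ± 0.53, lost at -1.79 without granulocyte replicate 1. Ccnd3 went opposite ways, at -1.26 ± 0.39 for probe set 1, lost at -0.89 without monocyte replicate 1 and at -1.25 and -1.27 without either granulocyte array, and 2.94 ± 0.74 for probe set 2, lost at 2.72 without monocyte replicate 1 and 2.27 without granulocyte replicate 2. Cdkn2c, at -1.49 ± 0.51 (adjusted p = 0.0523), was called at -2.61 without granulocyte replicate 2. Cdkn2d, at -0.69 ± 0.60, was called at -1.70 without monocyte replicate 2, and Cdkn1b, at 0.78 ± 0.29, was not called. When only the 4 arrays of these types were fitted, limma called no member probe set, and 8 of 19 had an unadjusted p under 0.05. In the lists, 13 of 15 mitosis genes were lower in monocytes, Mki67 at -9.82 ± 0.73 and Top2a at -8.995 ± 0.64, and 11 of 19 S phase genes, Rrm2 at -8.92 ± 0.96, where 23.2% of genes were called, 6.63% higher and 16.6% lower. Of the pocket protein and E2F list 6 of 12 were lower and none higher, with E2f8 at -2.74 ± 0.67.

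**Figure D5:**
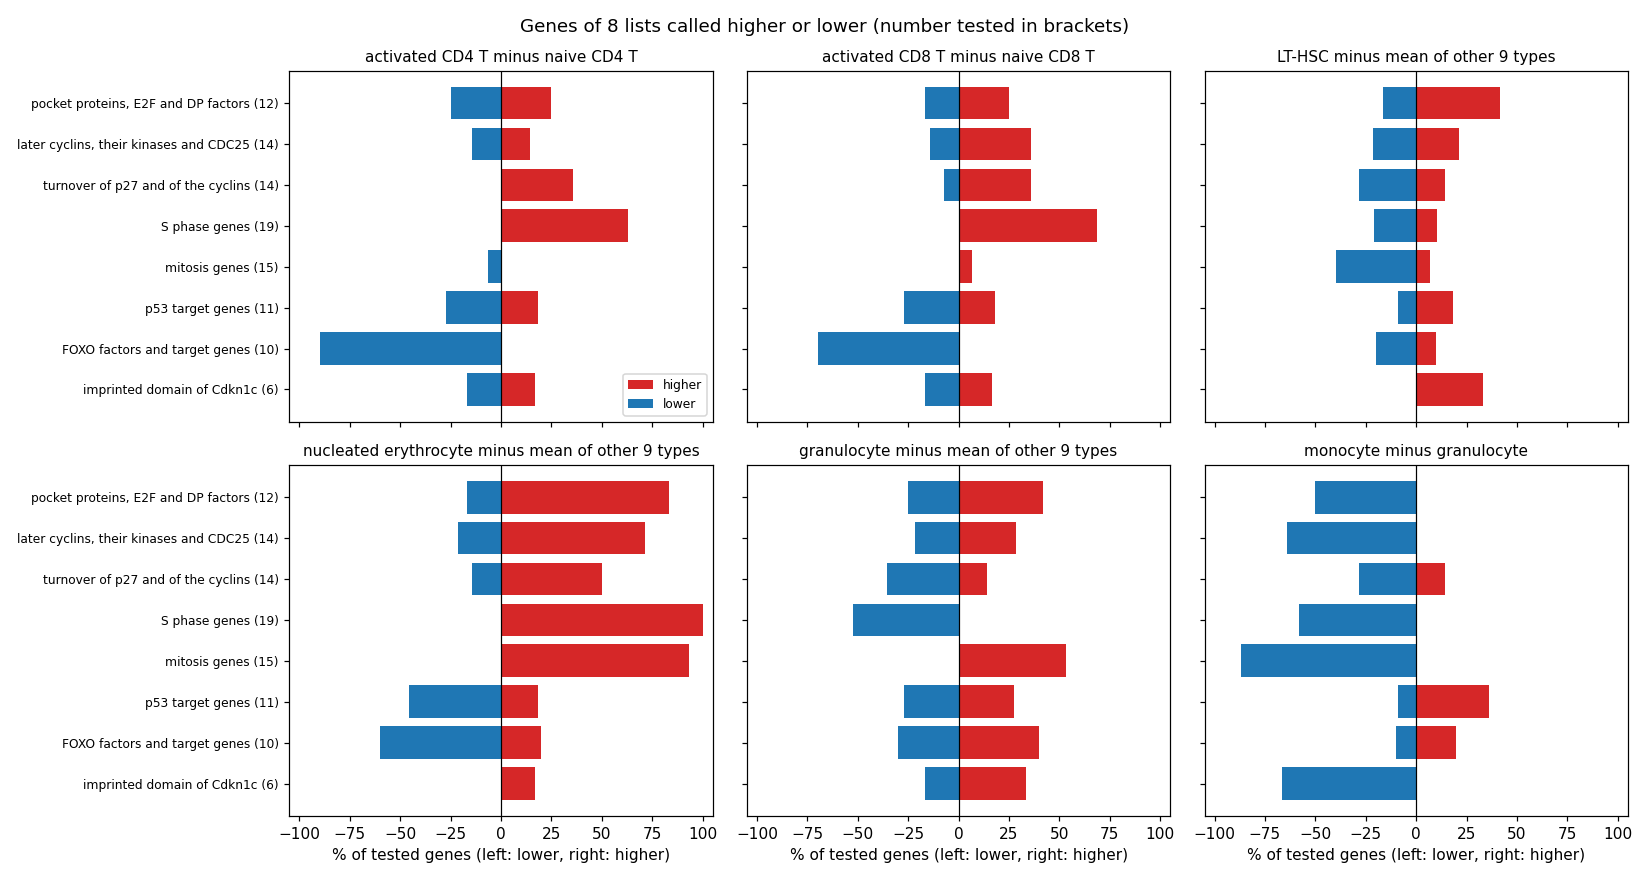
Share of tested genes called higher (right, red) or lower (left, blue), in percent, for 8 gene lists (rows, number tested in brackets) in 6 comparisons. S phase genes are higher in both activated T cell types and in erythrocytes, FOXO genes are lower in activated T cells, and mitosis genes are higher in erythrocytes and granulocytes.

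Fewer member probe sets were called among resting lymphocytes, where fewer of all tested probe sets were called too. B cells against the mean of naive CD4 and CD8 T cells gave 5 called member probe sets, all lower, where 16.8% of all tested were called, 6.48% lower. Ccnd1, at background in B cells, was lower, at -2.49 ± 0.34, and Ccnd3 probe set 1 at -1.48 ± 0.34. For Ccnd1 the naive mean, here and for NK cells below, joins 5.57 in CD4 and 3.355 in CD8 T cells. Ccnd2 was lower at probe sets 3, 5 and 7, at -1.82, -1.08 and -1.15, and not at the brightest, at -0.85 ± 0.31. Without B cell replicate 1, 2 probe sets were called, with the 3 Ccnd2 values at -1.40, -0.675 and -1.09 and none of them called. Without B cell replicate 2, 3 were called, Ccnd3 probe set 1 being lost at -1.41 and Ccnd2 probe set 7 at -1.20; that Ccnd2 probe set was also lost at -0.843 without naive CD8 T replicate 1. Cdk6 probe set 2, at 1.03 ± 0.36, was not called but was without either activated CD4 array.

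NK cells against naive T cells gave 1 call, Ccnd1 at -2.50 ± 0.34, where 17.7% were called, 7.29% lower. Ccnd2 probe set 1 was higher by 0.96 ± 0.31 (adjusted p = 0.0435), under 2-fold, and was called at 1.07 without naive CD4 T replicate 2 and at 1.11 without naive CD8 T replicate 1. Probe set 6, at 1.67, was called without either LT-HSC array and, at 2.23, without naive CD4 T replicate 2; Ccnd3 probe set 1, at 0.92, was called at 1.15 without that array. Ccnd2 probe set 7, at -0.80, was called at -1.10 without naive CD8 T replicate 2. NK cells had 4 calls without naive CD4 T replicate 2. The inhibitors did not pass in either comparison: Cdkn1b differed from naive T cells by -0.12 ± 0.25 in B and -0.07 ± 0.25 in NK cells, and Cdkn1a by -0.29 ± 0.53 and 0.11 ± 0.53. Of 9810 genes 16% were called in B cells, 8.24% higher and 7.75% lower, and 17.1% in NK cells, 8.23% higher and 8.88% lower. No mitosis gene of 15 was called in either, and 1 of 19 S phase genes was called, Tk1 in B cells at 2.10 ± 0.57. In B cells E2f2 was higher by 2.00 ± 0.45, and in NK cells Rbl2 was higher by 2.56 ± 0.46. Of the 10 FOXO list genes 1 was higher and 2 were lower in B cells, and 1 was higher and 3 were lower in NK cells. Il7r was lower in both, at -7.14 ± 0.57 in B and -2.72 ± 0.57 in NK cells, and the repressor gene Bcl6 was higher in both, by 2.66 ± 0.30 and 1.03 ± 0.30. Of 11 p53 targets 1 was higher in B cells, and in NK cells 2 were higher and 1 was lower, among them Btg2, higher by 1.56 ± 0.38, and Aen, at -1.14 ± 0.25.

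The genes whose 10 type means followed each member most closely were read off as a description, with Pearson correlations over the 10 means and no test. Cdkn2c ran with the erythroid genes Kel (0.9944), Epor (0.9944) and Ank1 (0.9943). Cdkn2d ran with Usp32 (0.9837), Lbr (0.9657) and Tbc1d10b (0.9607), and Ccnd3 with Prkab1 (0.9598), Synj1 (0.9375) and, like Cdkn2d, Lbr (0.9266). Cdk4 ran with Ssr2 (0.9849), the translation factor subunit Eif3l (0.9847) and Pmpca (0.9833), and Cdk6 with Otud6b (0.9713), Elp5 (0.9467) and Cnot11 (0.9455). Ccnd2 ran with Nfatc2 (0.9642), Zfp799 (0.9633) and Pogk (0.9628), and Ccnd1 with Dapk1 (0.9576), Arhgap29 (0.9513) and Gprc5b (0.9409). Cdkn1a ran with Slc9b2 (0.9551), Gsto1 (0.9435) and Pros1 (0.9109), and Cdkn1b with Acbd5 (0.9622), Crebl2 (0.9564) and Arnt (0.954). Points of such a correlation share their arrays, and 1 or 2 high types can set it.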

How the data were processed

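Per the labels' protocols, 25000 to 50000 cells were sorted by flow cytometry, RNA was extracted, treated with DNase and amplified by 2 rounds of in vitro transcription, which shortens transcripts towards their 3 prime ends. The deposited values are log2 expression values that the authors made with GCRMA, per the submitters' processing notes; its version is not given in the sources used here, nor is a joint or separate run of the arrays. They ran between 0.37 and 16.85, with array medians of 3.08 to 3.27, and were not normalized further. The number of arrays limits the precision.

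Of 45101 probe sets, 34945 had 1 gene symbol in the platform annotation, 932 had several and were not named, 9160 were not listed and 64 were controls. Symbols were updated through Entrez identifiers for 34754. Groups came from the sample titles; 1 array titled CD48+ was placed with naive CD8 T cells by its source name. In R 4.3.3, limma 3.58.1 fitted 1 mean per type over the 20 arrays and moderated the errors with eBayes. Tests were 2-sided, with Benjamini-Hochberg adjustment over the 18726 probe sets that were no control and had a log2 value above 5 in at least 2 arrays. The script was tested on simulated data. The members and gene lists were chosen with earlier results of these data known. The naming rule took every member probe set, the 3 genes most like each member and, per list and comparison, the 2 largest called differences on each side and the smallest uncalled one; of these the report gives a selection. The Ccnd2 probe set numbered 2 and the Cdk4 probe set numbered 1 carry the design suffix for possible cross-hybridisation. The Ccnd2 probe set numbered 3 carries the suffix for probes that may match several transcripts.

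Array numbers were not taken as pairs. The deviations of equally numbered arrays correlated at -0.239 to 0.174 over the 45 pairs of types, above 0.1 in 10 of them. Alternatives were another scaling, other filters, array weights, a replicate block, fewer groups and leaving out each array.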

Additional observations from a re-analysis of the deposited data

How the results depend on the processing

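No member result changed sign while called. Of 209 results (19 probe sets in 11 comparisons) 101 were called, of which 65 were called under every alternative and 36 were lost under at least 1; of the 108 not called, 21 were gained under at least 1. With 1 probe set per gene, which by construction leaves fewer to call, the counts were 6 in activated CD4, 6 in activated CD8, 6 and 4 in LT-HSC against the other 9 types and naive T cells, 6 and 7 in erythrocytes against the other 9 types and LT-HSC, 5 in granulocytes and 2 in B cells. When only the compared groups were fitted, on fewer arrays, limma called 10 in activated CD4, 11 in activated CD8, 6 in LT-HSC against naive T cells, 13 in erythrocytes against LT-HSC, 0 in monocytes against granulocytes (8 with an unadjusted p under 0.05), 2 in B cells and 1 in NK cells. NK cells had 2 calls with arrays centred on their median, with array weights, or with no 2-fold requirement. The difference between CD8 and CD4 responses had 1 call without the naive arrays numbered 2. Leaving out each array gave 11 to 14 calls in activated CD4, 9 to 13 in activated CD8, 0 to 1 for their difference, 10 to 14 and 7 to 9 in LT-HSC, 11 to 13 and 14 to 14 in erythrocytes, 11 to 13 in granulocytes, 5 to 9 in monocytes, 2 to 6 in B cells and 1 to 4 in NK cells. The cause of these changes was not tested. A replicate block on the array numbers changed no count in the comparisons (13, 13, 0, 13, 9, 12, 14, 12, 9, 5 and 1 in the order above), and crossing the monocyte numbers, an alternative chosen after seeing the data, gave 10 calls in monocytes against granulocytes. Quantile normalization moved the median of all tested probe sets in LT-HSC against the other types to -0.243, against -0.127, in erythrocytes to -0.314, against -0.449, and in erythrocytes against LT-HSC to -0.001, against -0.17. Of 88 list counts 16 moved by over 1.5 times when the probe sets of a gene were averaged. Probe sets near background, as Ccnd1, Cdkn1a, Cdkn2c and Cdkn2d are in most types, bound what a difference can show.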
